A study of Caenorhabditis elegans with 24 samples.

Results

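The effect of the *daf-2(e1370)* mutation on RNA levels was compared between enriched germline nuclei and whole worms, over the 9271 of 14206 measured genes that had reads in all 6 nuclei libraries. These 12 of the 24 libraries of the study form 4 groups of 3, namely wild-type nuclei, *daf-2* nuclei, wild-type worms and *daf-2* worms. The question was which genotype effects were shared by nuclei and worms, and which differed between them. For each gene the effect in nuclei (*daf-2* minus wild type, log2) was set against the effect in worms, and the difference of both effects (nuclei minus worms) was tested. Reads were asked for in the nuclei of both genotypes, so genes without reads in 1 genotype were left out and the genotype effect bears on which genes were kept. All 3 wild-type nuclei libraries had reads for 11356 genes, and all 3 *daf-2* nuclei libraries for 9813. The rule left out 4935 genes, of which 4604 had reads in all 6 worm libraries, and 206 of the genes kept had no reads in at least 1 worm library.

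Both strains carry *ljt3[hsf-1::degron::gfp]*, in which the heat shock factor gene is tagged for degradation, and *ieSi38*, in which the germline promoter of *sun-1* drives TIR1::mRuby and which also brings *Cbr-unc-119(+)*. The wild type of this comparison is strain JTL621, which in addition lists *unc-119(ed3)* on chromosome III. JTL642 lists *daf-2(e1370)* on the same chromosome and no *unc-119* allele. Whether JTL642 lacks this allele or it is only not listed is not given in the sources used here, and if it lacks it, its part cannot be told apart from that of *daf-2*. Their labels name no auxin for these 12 libraries, so the tag was present in all 4 groups without a stated depletion. Young adults were lightly fixed in cold dimethylformamide and broken open, and RNA was taken from the enriched nuclei and from the worm lysate, then enriched for polyA RNA. The paper describes its nuclei samples as biological replicates, while the labels do not say whether the libraries came from separate cultures. The p-values measure only the spread between these libraries. In bulk RNA of this kind, fewer cells of a type and less RNA per cell cannot be told apart.

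DAF-2 is the insulin/IGF-1 receptor of *C. elegans*. When it signals, a kinase cascade through AGE-1, PDK-1, AKT and SGK-1 keeps the FOXO factor DAF-16 in the cytoplasm. When receptor activity is low, as in *daf-2(e1370)*, DAF-16 enters the nucleus and raises genes for stress resistance and fat metabolism (Class I), while genes of growth and digestion (Class II) go down. The mutant is known for its long life, for slower development and for changes in yolk, fat and protein turnover. RNA in isolated nuclei is weighted toward newly made and retained transcripts, while a worm lysate holds the cytoplasmic mRNA of all tissues.

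The nuclei libraries held 13.9 to 19.3 M counted reads and the worm libraries 21.9 to 28.8 M. Levels are given in CPM, reads scaled to an adjusted library size (counts per M reads), in which a gene without reads is listed at 0.0672 CPM and 1 read is worth 0.0888 to 0.157 CPM in nuclei and 0.0152 to 0.0294 CPM in worms. Ribosomal RNA took 62.1% to 72.9% of reads in wild-type nuclei and 38.0% to 66.8% in *daf-2* nuclei, the lowest share being that of *daf-2* nuclei replicate 2. In worms it took 15.8% to 35.1% in the wild type, lowest in replicate 2, and 9.37% to 13.3% in *daf-2*, so the worm groups did not overlap. Transcripts of the mitochondrial genome took 14.1% to 26.2% of the other reads in nuclei and 6.38% to 16.2% in worms. The CPM of all genes, ribosomal RNA included, added up to 1236880 to 2688300 per library in nuclei and 424276 to 645863 in worms. A higher CPM in nuclei than in worms is therefore not by itself a higher share of the reads. The label of the nuclei as germline was checked against tissue markers. Summed over 29 genes of germ cells and P granules, the level was 1825 to 3913 CPM in nuclei and 1384 to 2612 CPM in worms, but 22 body wall muscle genes summed to 5509 to 7833 CPM in nuclei and 2914 to 6407 CPM in worms. Each of these muscle genes had reads in at least 1 library of every group. Single genes weigh heavily in such a sum. The muscle gene *ttn-1* had 3211 to 4919 CPM in nuclei and 140 to 1372 CPM in worms. *tnt-3* had 865 to 1535 and 37.8 to 413 CPM. By contrast, *tni-1* had 85.3 to 94.6 CPM in wild-type nuclei and 102 to 149 CPM in wild-type worms. The sum thus does not show that muscle genes as a class were higher in nuclei. Intestinal markers (18) summed to 238 to 619 CPM in nuclei and 738 to 981 CPM in worms. The 134 cuticle collagens reached 5722 to 12755 CPM in nuclei and 12547 to 26198 CPM in worms. Somatic transcripts were therefore present in the nuclei, and the text calls these samples nuclei and not germline.

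Part of the called genotype effects was shared by nuclei and worms. In nuclei 579 genes were higher and 758 lower in *daf-2* (6.25% and 8.18% of genes, together 14.4%), and in worms 208 were higher and 832 lower (2.24% and 8.97%, together 11.2%), by limma with Benjamini-Hochberg adjustment at 0.05. In both comparisons, 406 genes passed with the same sign. Of these, 399 (4.3% of genes) showed no called difference and are named shared here, 94 higher and 305 lower. Over all 9271 genes, the effects had a Pearson r of 0.56 and a Spearman rho of 0.49, and 6202 genes had the same sign in both. This is a description across genes, which are not independent and which were scaled together. Of the 832 genes lower in worms, 689 were also below 0 in nuclei, and of the 208 higher in worms, 190 were above 0 in nuclei. Among all 9271 genes, 4834 were above 0 in nuclei. All 3 tests of a gene share 1 spread, taken from all 12 libraries. With the 6 libraries of each sample type fitted apart, 1102 genes passed in nuclei and 1821 in worms. Which sample type had more calls therefore depended on the model. The counts of the fit with a shared spread also moved with single libraries. In nuclei 769 and 669 genes passed without wild-type replicates 1 and 3, and 779 and 844 without *daf-2* replicates 1 and 2. In worms 392 and 590 passed without wild-type replicates 1 and 3, and 496 without *daf-2* replicate 2. Without any 1 of these 7 libraries 207 to 254 genes were shared, and 183 to 243 of these were among the 399.

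Genes called in one sample type alone were more numerous than genes with a shown difference. Without a called difference, 919 genes passed in nuclei alone and 609 in worms alone, and these are not shown to differ between the sample types. The difference itself was called for 37 genes (0.399%), 30 with a positive difference (0.324%) and 7 with a negative one (0.0755%), while 1235 had an unadjusted p under 0.05. This fit did not pair nuclei and worms of the same replicate number, because no source says that the numbers mark preparations. With the replicate number as block 284 differences were called. With each same-numbered pair of a genotype as block there were 230, and both sets included all 37. Which genes were called, and the balance of signs, depended on the rule for reads in the nuclei. With the filter of the authors, over 13613 genes, 3 differences were positive and 11 negative, and only 5 of these were among the 37. Without a filter, over 14206 genes, 4 were positive and 13 negative, again with 5 among the 37. The authors' filter also moved the median nuclei effect of all genes from 0.04 to -0.15 and the nuclei calls to 645 higher and 1146 lower. The unadjusted 95% interval of a difference reached a median of 1.28 to either side on the log2 scale. The adjusted test asked for more, and differences of 3.28 (*qua-1*) and 2.32 (*ttn-1*) were not called. A missing call therefore does not show that a difference was small. The calls depended on single libraries. No difference was called without wild-type nuclei replicate 1 (1258 genes at an unadjusted p under 0.05), *daf-2* nuclei replicate 1 (1326), wild-type worms replicate 1 (845) or *daf-2* worms replicate 2 (882), and 299 were called without wild-type worms replicate 2. There were 13 calls without wild-type nuclei replicate 2, 7 without its replicate 3, 2 without *daf-2* nuclei replicate 3, 2 without wild-type worms replicate 3, 58 without *daf-2* worms replicate 1 and 12 without its replicate 3. All 37 differences kept their sign in each of these 12 fits.

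**Figure D1:**
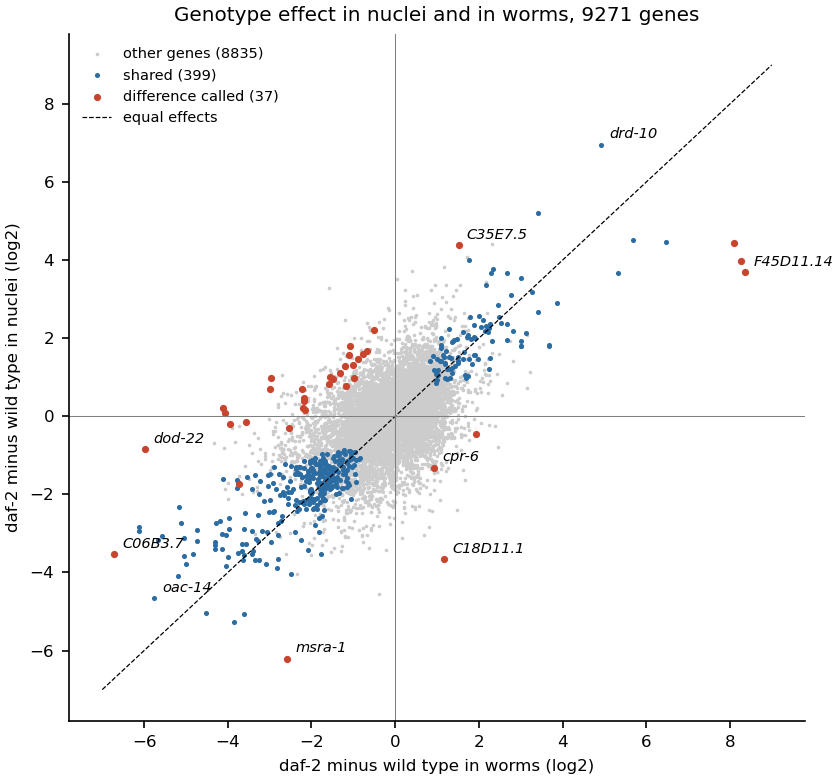
Effect of *daf-2* in worms (horizontal, log2) against the effect in nuclei (vertical, log2), 1 point per gene for 9271 genes. The 399 shared genes (blue) have the same sign in both and scatter around the dashed line of equal effects, and of the 37 genes with a called difference (red) 30 lie above it and 7 below.

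The shared genes that rose most included *drd-10*, *asm-3* and *pud-3*. *drd-10*, a gene named for its response to dietary restriction, had 4.99, 29.6 and 4.28 CPM in wild-type nuclei and 1329.8, 885 and 1031 CPM in *daf-2* nuclei. In worms it had 4.36, 5.6 and 1.82 CPM in the wild type and 195, 81.4 and 77.8 CPM in *daf-2*. All *daf-2* libraries lay above all wild-type libraries of the same kind, with log2 effects of 6.96 ± 0.56 (SE) in nuclei and 4.92 ± 0.56 in worms (limma adjusted p = 5.33e-07 and adjusted p = 1.32e-05). *asm-3*, an acid sphingomyelinase, had 0.572, 0.625 and 1.12 CPM in wild-type nuclei and 15.5, 19.6 and 16.1 CPM in *daf-2* nuclei. In worms it had 0.214, 0.343 and 0.355 CPM against 13.3, 23.0 and 11.4 CPM. The groups again stood apart in both sample types, by 4.52 ± 0.54 and 5.68 ± 0.54. *pud-3* and *pud-4*, neighbors named for proteins that increase in *daf-2* mutants, rose by 4.46 and 3.68 in nuclei and by 6.46 and 5.34 in worms. *F17A2.13* rose by 5.22 in nuclei and 3.42 in worms, *F23D12.11* by 3.11 and 2.76, and the pseudogene WBGene00019208 by 2.90 and 3.86. The differences of these genes ranged from -2.01 (*pud-3*, adjusted p = 0.336) to 2.04 (*drd-10*, adjusted p = 0.253), and none was called.

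Transcripts of 4 of 6 yolk proteins and of some cuticle collagens rose in both sample types. *vit-1*, which encodes a vitellogenin (yolk protein made in the intestine), had 4.36, 5.3 and 7.41 CPM in wild-type nuclei, 107, 75.5 and 34.6 CPM in *daf-2* nuclei, 61.0, 142 and 46.2 CPM in wild-type worms and 571, 758 and 471 CPM in *daf-2* worms. It rose by 3.56 ± 0.41 in nuclei and 3.00 ± 0.41 in worms, with a difference of 0.56 (95% interval -0.64 to 1.75). Of the 6 vitellogenins, 4 rose in nuclei and 5 in worms, with list medians of 1.75 and 2.10 against 0.04 and -0.01 over all genes. *vit-2*, the member of highest level with *vit-6*, had 0.46 in nuclei and 1.00 in worms and did not pass in either, while *vit-6* rose in worms alone (1.74, and 0.61 in nuclei). The collagen *col-98* had 6.5, 16.4 and 17.0 CPM in wild-type nuclei and 145, 113 and 85.7 CPM in *daf-2* nuclei, and 28.8, 85.8 and 132 against 796, 649 and 563 CPM in worms. Its effects of 3.20 ± 0.44 and 3.27 ± 0.44 differed by -0.07 (95% interval -1.36 to 1.22). *col-103* rose by 2.68 in nuclei and 3.42 in worms.

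Several other cuticle collagens were among the shared genes that fell most. *oac-14*, an O-acyltransferase homolog, had 162, 67.2 and 128 CPM in wild-type nuclei and 7.31, 3.17 and 3.67 CPM in *daf-2* nuclei. In worms it had 94.1, 35.2 and 47.1 CPM against 1.45, 0.848 and 0.804 CPM, and it fell by 4.66 in nuclei and by 5.76 in worms (limma adjusted p = 5.38e-06 and adjusted p = 9.72e-08). The collagen *col-71* had 2910.0, 1106 and 1739 CPM against 73.0, 229.6 and 199 CPM in nuclei, and 1022, 90.6 and 840.5 CPM against 5.68, 22.8 and 16.7 CPM in worms. *rol-1*, a cuticle collagen known for roller mutants, had 1452, 611 and 832 CPM against 18.9, 104 and 74.6 CPM in nuclei. In worms *rol-1* had 599, 50.7 and 379.5 CPM against 2.55, 11.5 and 8.0 CPM. In both genes wild-type worms replicate 2 lay far below the other wild-type worms, yet above each *daf-2* worm library. The same holds for *col-49* (54.6 CPM in wild-type worms replicate 2, 597 and 437 CPM in the others), which fell in both (-3.78 in nuclei and -4.999 in worms). *col-175*, the cuticlin gene *cut-2*, *nlp-30* (a secreted antimicrobial peptide of the epidermis), *idpa-1*, *K01D12.9* and WBGene00018737 fell in both, with effects of -5.28 to -3.61 in nuclei and -4.51 to -3.61 in worms. 

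**Figure D2:**
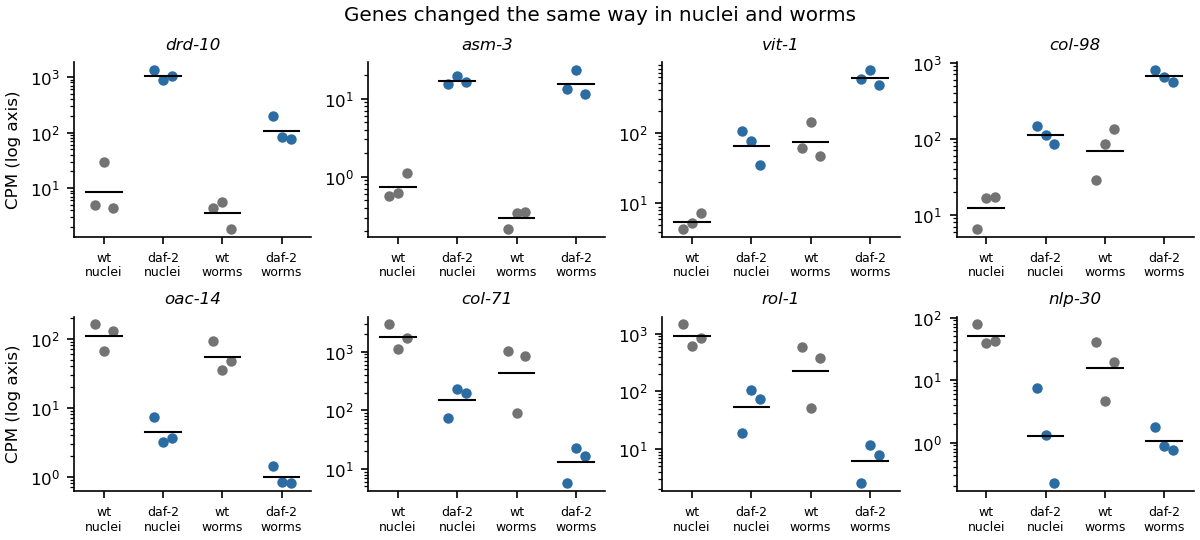
Level (CPM, log axis) of 8 shared genes in each of the 12 libraries, 3 points per group with a line at the mean of the log2 levels. The *daf-2* libraries (blue) lie above the wild-type libraries (gray) for *drd-10*, *asm-3*, *vit-1* and *col-98* and below them for *oac-14*, *col-71*, *rol-1* and *nlp-30*, in nuclei and in worms.

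Over the 82 cuticle collagens tested, the signs of the effects were split in much the same way in nuclei and worms. In nuclei 17 rose and 36 fell (median -1.45), and in worms 20 rose and 29 fell (median -1.20). Of these, 15 rose and 23 fell as shared calls, 78 had the same sign in both, and no difference was called. The summed level of all 134 collagens, however, was lower in *daf-2* nuclei and higher in *daf-2* worms. It was 6960 to 12755 CPM in wild-type nuclei and 5722 to 5977 CPM in *daf-2* nuclei. In worms it was 12547 to 15558 CPM in the wild type and 23205 to 26198 CPM in *daf-2*. The members of highest level, *col-124* and *col-106*, belong to those that were higher in *daf-2*, *col-124* in both (0.95 and 1.24) and *col-106* in worms (1.60, and 1.03 in nuclei). Among 15 further genes of the hypodermis, the tissue that makes the cuticle, 2 fell in nuclei and 5 in worms. The shares of all genes that fell were 8.18% in nuclei and 8.97% in worms. *qua-1*, a hedgehog-related gene needed for molting, had 805, 569 and 1684 CPM against 77.4, 193 and 139 CPM in nuclei and 194, 34.5 and 493 CPM against 1.45, 5.01 and 1.33 CPM in worms. Its effects of -2.85 and -6.13 differed by 3.28 ± 0.95, which did not pass (limma adjusted p = 0.118). The collagens that fell in worms numbered 14 without wild-type worms replicate 1, 8 without replicate 3 and 9 without *daf-2* worms replicate 1, and those that rose 10 and 12 without the first and second of these. In nuclei 12 and 16 fell without wild-type replicates 1 and 3 and 15 without *daf-2* replicate 1, and 10 rose without wild-type replicate 3. The list medians stayed below 0, at -1.71 to -1.06 in nuclei and -1.45 to -0.71 in worms.

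Among the 9271 genes, those with a positive difference mostly had far higher CPM in nuclei than in worms, and fell in worms. Of the 30, 25 fell in worms, and 29 had a worm effect below 0, while 11 rose in nuclei. In 27 of the 30, every nuclei library lay above every worm library, against 1761 of all 9271 genes. *K09F6.9* had 306, 426 and 903 CPM in wild-type nuclei and 607, 534 and 1572 CPM in *daf-2* nuclei, but 92.9, 20.2 and 62.5 CPM in wild-type worms and 8.06, 5.15 and 5.49 CPM in *daf-2* worms. The nuclei groups overlap and the worm groups do not, and the difference was 3.71 ± 0.69 (limma adjusted p = 0.0256). *C42D4.18* had 48.0, 86.7 and 37.9 CPM against 54.4, 61.4 and 34.1 CPM in nuclei and 28.6, 21.0 and 22.6 CPM against 3.31, 1.5 and 1.63 CPM in worms. Its difference of 3.42 ± 0.55 (adjusted p = 0.0152) passed in 12 of 12 alternatives of scaling, filter and model and in 7 of 12 fits without 1 library. Among the called differences named here, only those of *C42D4.18* and *cpr-6* passed in every alternative. The difference of *K09F6.9* passed in 9 of 12 alternatives and 5 of 12 fits without 1 library, and that of *sdc-2* in 9 and 4. *sdc-2*, which starts X chromosome dosage compensation in hermaphrodites, had 220.5, 267 and 290.2 CPM against 472, 294 and 531 CPM in nuclei and 36.9, 8.97 and 21.5 CPM against 3.99, 4.23 and 4.01 CPM in worms. The difference was 2.94 ± 0.53 (adjusted p = 0.0256), and the groups did not overlap in either sample type.

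Positive differences were also called for *eif-3.J*, *tnt-3* and *ist-1*, each the single called difference of its list (initiation factors, body wall muscle and insulin pathway). *eif-3.J* and *tnt-3* fell in worms, while *ist-1* rose in nuclei and did not pass in worms. *eif-3.J*, a subunit of translation initiation factor eIF3, had 1799, 1287 and 1001 CPM against 1968, 1676 and 1584 CPM in nuclei. In worms it had 314, 91.1 and 221 CPM against 50.9, 35.4 and 37.4 CPM, a fall of 2.19 ± 0.36 on the log2 scale, and the difference was 2.58 ± 0.51 (limma adjusted p = 0.0304). *tnt-3*, a troponin T, had 1286, 1535 and 1359 CPM against 1229.8, 865 and 1384 CPM in nuclei and 413, 136 and 295 CPM against 47.5, 37.8 and 47.7 CPM in worms. The groups overlap in nuclei alone, and the difference was 2.24 ± 0.47 (adjusted p = 0.0408). *ist-1*, a homolog of insulin receptor substrates, had 95.3, 113 and 144 CPM against 388, 279.6 and 474 CPM in nuclei, a rise of 1.68 ± 0.35. Its worm levels were 18.1, 6.55 and 18.7 CPM against 8.82, 7.17 and 8.46 CPM and overlap, and the difference was 2.37 ± 0.50 (adjusted p = 0.0427). The differences of *eif-3.J*, *tnt-3* and *ist-1* each passed in 3 of 12 fits without 1 library. The largest levels of the 37 genes were those of *F59E12.9*, with 4402, 4226 and 3395 CPM against 11626, 5661 and 7705 CPM in nuclei and 528, 155 and 283 CPM against 129, 79.2 and 89.7 CPM in worms (difference 2.56 ± 0.55, adjusted p = 0.0443).

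Wild-type worms replicate 2, which had the lowest ribosomal RNA share of its group, was also the lowest wild-type worm library for 27 of the 30 genes, against 3146 of all 9271 genes. Ribosomal RNA itself, at 30.0%, 15.8% and 35.1% of reads in wild-type worms and 9.37%, 13.3% and 11.4% in *daf-2* worms, was also lowest in replicate 2 of the wild type and did not overlap between the worm groups. The mitochondrial protein gene WBGene00010958 had 4544, 1748 and 4584 CPM in wild-type worms and 1637, 716 and 879 CPM in *daf-2* worms, and 17754 to 21339 CPM in wild-type nuclei and 36744 to 52001 CPM in *daf-2* nuclei. Its effects were 1.21 in nuclei and -1.71 in worms, and its difference of 2.92 ± 0.75 did not pass (limma adjusted p = 0.0909). The part of these shares in the differences was not tested. With all libraries scaled to their reads outside ribosomal RNA and the mitochondrial genome, 22 positive and 6 negative differences were called, and 26 of these were among the 37.

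**Figure D3:**
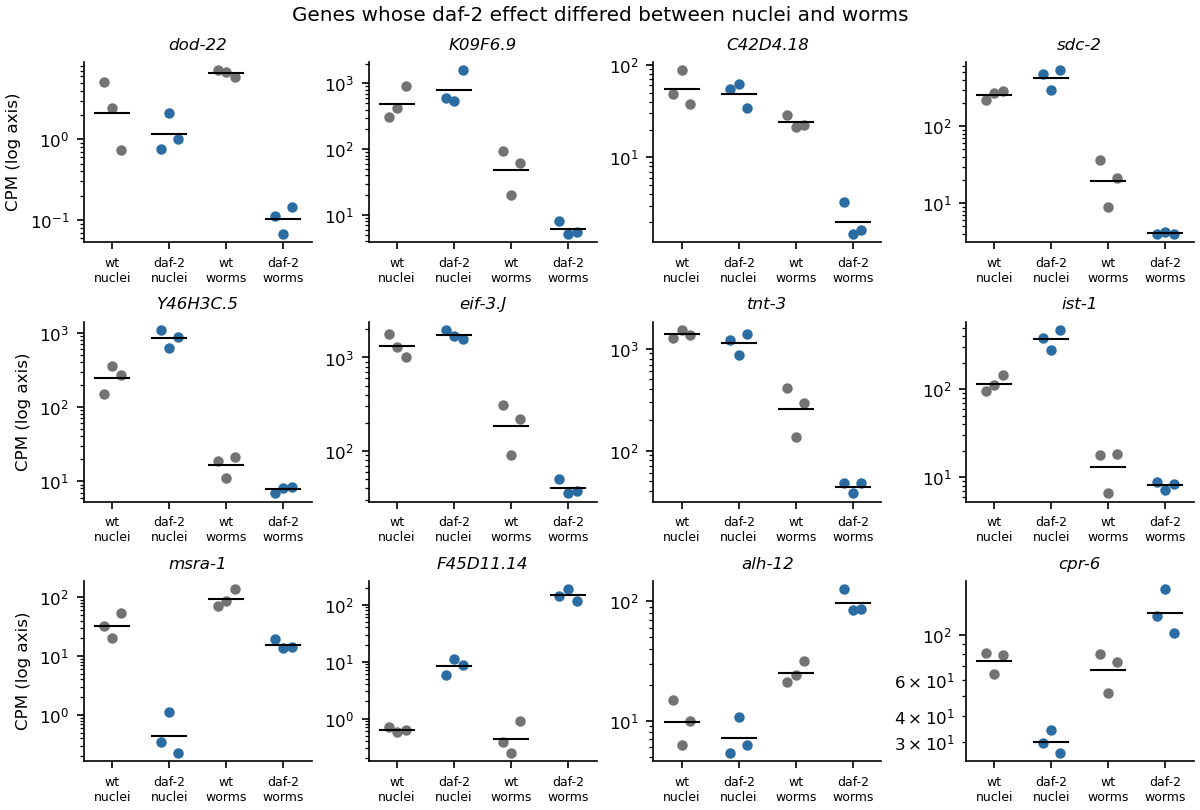
Level (CPM, log axis) of 12 genes with a called difference in each of the 12 libraries, 3 points per group with a line at the mean of the log2 levels. From *dod-22* to *ist-1* the effect is lower in worms than in nuclei, and from *msra-1* to *cpr-6* it is higher in worms.

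A few positive differences came from genes near the limit of detection in *daf-2* worms. *dod-22*, a Class II gene of the innate immune response that DAF-16 lowers, had 5.11, 2.44 and 0.737 CPM against 0.764, 2.11 and 1.01 CPM in nuclei and 7.09, 6.73 and 5.88 CPM against 0.113, 0.0672 and 0.144 CPM in worms. The worm groups stood apart, with 799 reads over the wild-type libraries and 8 over the *daf-2* libraries, a depth-corrected ratio of 149 (95% exact interval 75.3 to 347, counting error only). The difference of 5.16 ± 1.02 was the largest of all (limma adjusted p = 0.0304). *chtb-2* had 376 and 19.2 reads over the wild-type and *daf-2* worms, and a difference of 4.32. The noncoding RNA *C02F4.11* had 133 reads in wild-type worms and 0 in *daf-2* worms, at least 20.2-fold lower against a floor of 3 reads per library, with 23.8, 27.0 and 35.5 CPM against 32.7, 20.3 and 40.8 CPM in nuclei. The noncoding RNA *C18B12.10* had 152 reads against 4 in worms, and *pqn-67*, a gene of glutamine-rich repeats, had 7.78, 1.67 and 8.18 CPM against 0.712, 0.543 and 0.575 CPM there. The difference of *dod-22* passed in 6 of the 10 alternatives that tested it and in 3 of 12 fits without 1 library. For *chtb-2* it was 5 of 10 and 2 of 12, for *C02F4.11* 5 of 10 and 4 of 12. For *C18B12.10* it was 4 of 10 and 2 of 12, and for *pqn-67* 6 of 11 and 3 of 12. Fitted values of such genes depend on the constant added before the logarithm.

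Other positive differences lay in genes that moved the same way in nuclei and worms, but not equally. *C06B3.7* fell in both, from 21.9, 49.4 and 22.2 CPM to 2.85, 3.09 and 1.79 CPM in nuclei and from 173, 174 and 77.2 CPM to 1.55, 1.27 and 1.02 CPM in worms. The fall was larger in worms (-6.71 against -3.52, difference 3.19 ± 0.63, limma adjusted p = 0.0304). *C35E7.5* rose in both, from 12.3, 33.8 and 9.3 CPM to 435, 303 and 269.9 CPM in nuclei and from 1.67, 1.46 and 1.17 CPM to 3.54, 4.85 and 3.85 CPM in worms, by 4.39 and 1.51. *F53B2.8* fell in both (-1.75 in nuclei and -3.74 in worms, difference 1.99, adjusted p = 0.0439).

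The 7 negative differences were genes that rose more, or fell less, in worms. Of these, 3 are near-identical neighbors on chromosome II. *F45D11.14* (II 1004616 to 1006475 on WBcel235) had 0.719, 0.579 and 0.631 CPM against 5.95, 11.0 and 8.62 CPM in nuclei and 0.387, 0.248 and 0.906 CPM against 141, 187 and 118 CPM in worms. Both *F45D11.16* gene entries, WBGene00018460 (II 1010444 to 1012282) and WBGene00018461 (II 1016262 to 1018100), had the same pattern. The differences were -4.68, -4.30 and -3.68, but reads that match several genes were shared as fractions, so these 3 are not separate observations. The genes rose in nuclei too, by 3.69, 3.97 and 4.43, on 10.1 to 14.8 reads over the wild-type nuclei.

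*msra-1*, a methionine sulfoxide reductase that repairs oxidized protein, fell in both sample types and further in nuclei. It had 32.5, 20.0 and 54.3 CPM against 0.346, 1.13 and 0.224 CPM in nuclei (15 reads in all over *daf-2* nuclei) and 71.5, 86.5 and 137 CPM against 19.3, 13.8 and 14.6 CPM in worms. The effects were -6.21 and -2.59 (difference -3.62 ± 0.72, limma adjusted p = 0.0324). *C18D11.1* had 1.45, 2.72 and 3.7 CPM in wild-type nuclei and 1 read in each *daf-2* nuclei library, a ratio of 22.0 (95% exact interval 7.22 to 109), and 0.92, 4.42 and 4.09 CPM against 4.88, 6.87 and 5.69 CPM in worms. *alh-12*, an aldehyde dehydrogenase, had 14.8, 6.2 and 9.92 CPM against 5.36, 10.6 and 6.26 CPM in nuclei, where the groups overlap. In worms it rose from 21.0, 24.2 and 31.5 CPM to 126, 84.7 and 85.5 CPM (difference -2.39 ± 0.52, adjusted p = 0.0496). Without 1 library, the differences of *msra-1*, *C18D11.1* and *alh-12* each passed in 3 of 12 fits.

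In both sample types 7 genes passed with opposite signs, and all 7 also had a called difference. In the fits without 1 library this count was 0 to 21, lowest without wild-type worms replicate 1 and highest without its replicate 2. *cpr-6*, a cathepsin B-like protease of the intestine, is the one that fell in nuclei and rose in worms. It had 81.2, 64.0 and 79.6 CPM against 29.7, 34.3 and 26.4 CPM in nuclei and 80.3, 52.0 and 73.1 CPM against 123, 166 and 101 CPM in worms, and no groups overlapped. The effects were -1.32 ± 0.27 and 0.92 ± 0.27 (limma adjusted p = 0.00505 and adjusted p = 0.0318), and the difference of -2.24 ± 0.38 (adjusted p = 0.0207) passed in 12 of 12 alternatives and in 5 of 12 fits without 1 library. The other 6 rose in nuclei and fell in worms. *Y46H3C.5* had 152, 358 and 267 CPM against 1095, 631 and 869.8 CPM in nuclei and 18.9, 11.0 and 20.8 CPM against 6.81, 8.14 and 8.34 CPM in worms (1.79 and -1.07, difference 2.86 ± 0.46). Its neighbor *Y46H3C.7*, whose annotated span overlaps it on the same strand (V 1691029 to 1692495 and V 1692458 to 1694022), had 1.32 and -1.01. *H37A05.4* had 118.8, 253 and 260.0 CPM against 687, 485 and 607 CPM in nuclei and 22.5, 12.3 and 24.96 CPM against 8.49, 8.84 and 9.36 CPM in worms. *F13C5.2*, the pseudogene WBGene00014904 and the noncoding RNA WBGene00014492 had 1.11, 1.28 and 0.99 in nuclei and -1.33, -1.20 and -0.99 in worms.

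Cathepsin-type proteases, the lysosomal and intestinal enzymes of protein breakdown, had medians of opposite sign in the 2 sample types. Of 19 tested, 9 fell and 0 rose in nuclei, where 8.18% of all genes fell. In worms 4 rose and 3 fell, against 2.24% and 8.97% of all genes. The medians were -1.07 in nuclei and 0.55 in worms, while 12 of the 19 had the same sign in both. The median difference was -1.19, against 0.09 over all genes, and 17 of the 19 differences were below 0, with *cpr-6* the single one called. Without wild-type nuclei replicate 1, 5 fell in nuclei, and without wild-type worms replicate 1 or *daf-2* worms replicate 2, 1 rose in worms, while the medians kept their signs in all 12 fits without 1 library. *asp-6*, an aspartyl protease, had 19.7, 103 and 15.5 CPM against 6.2, 14.8 and 11.0 CPM in nuclei and 53.8, 91.1 and 104 CPM against 87.3, 219.7 and 251 CPM in worms. It fell in nuclei (-1.65, limma adjusted p = 0.0473) and had 1.08 in worms (adjusted p = 0.216). *asp-4* rose in worms, from 45.7, 54.2 and 52.2 CPM to 221, 177 and 174 CPM, and had 0.70 in nuclei. *cpr-5* went the same way in both, from 443, 233 and 479 CPM to 32.2, 24.0 and 39.7 CPM in nuclei and from 247, 86.1 and 172 CPM to 12.5, 11.3 and 14.3 CPM in worms. Of 11 markers of the intestine tested, *cpr-6* among them, 4 fell in nuclei and 1 rose and 1 fell in worms. The summed level of all 18 intestinal markers was 472 to 619 CPM in wild-type nuclei and 238 to 257 CPM in *daf-2* nuclei, but 755 to 949 and 738 to 981 CPM in worms, with 1 marker without reads in all 3 *daf-2* nuclei libraries. The level of these markers in the nuclei moved with the genotype, and its part in these effects was not tested.

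Cytosolic ribosomal protein genes had medians below 0 in both sample types, and all 81 were below 0 in nuclei, where 8.18% of all genes fell. Of the 49 of the large subunit, 16 fell in nuclei and 5 in worms (medians -0.83 and -0.46), and of the 32 of the small subunit 10 fell in nuclei and 0 in worms (medians -0.83 and -0.34). *rps-6*, a target of S6 kinase, had 307, 294 and 338 CPM against 181, 138 and 138 CPM in nuclei and 409, 608 and 586 CPM against 408, 616 and 625 CPM in worms. The nuclei groups stood apart and the worm groups overlapped, and the effects were -1.05 ± 0.27 (limma adjusted p = 0.0153) and 0.04 ± 0.27. The difference of -1.08 ± 0.38 did not pass (adjusted p = 0.19), and no difference was called in either subunit list. *rpl-4* fell in nuclei from 140.2, 185 and 126 CPM to 80.3, 74.1 and 44.0 CPM and had 282, 423 and 443 against 249, 444 and 475 CPM in worms. *rpl-42* and *rpl-11.2* were the genes of the large subunit that fell in both, *rpl-42* with -2.97 in nuclei and -2.38 in worms and *rpl-11.2* with -1.13 and -1.27. The members of highest level, *rpl-19* and *rpl-32*, had -0.83 and -0.70 in nuclei and -0.73 and -0.53 in worms, and none of these passed.

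How many ribosomal protein genes passed depended on single libraries, and the medians did not change sign. Over the 12 fits without 1 library, 4 to 23 genes of the large subunit fell in nuclei with medians of -0.98 to -0.60, and 2 to 14 of the small subunit with medians of -0.98 to -0.59. The lowest counts were those without wild-type nuclei replicate 1 (4 and 2). Without *daf-2* nuclei replicate 2, the library with the lowest share of ribosomal RNA, 9 and 4 fell, and without *daf-2* nuclei replicate 3 it was 8 and 4. Without wild-type nuclei replicate 2, 8 of the large subunit fell. Scaled to reads outside ribosomal RNA and the mitochondrial genome, 41 and 23 fell. That scaling moved the median of all genes from 0.04 to -0.12 in nuclei, and the ribosomal medians of -0.997 (large) and -0.995 (small) under it include this shift. Of 8 elongation and release factors, 4 fell in nuclei and 0 in worms (medians -0.88 and -0.10, difference -0.70), but in nuclei 0 fell without wild-type replicate 1 or *daf-2* replicate 2, 1 without wild-type replicate 2 or *daf-2* replicate 3, and 2 without *daf-2* replicate 1, wild-type worms replicate 3 or *daf-2* worms replicate 2 or 3. *eef-1A.1*, which brings tRNA to the ribosome, had -0.87 in nuclei and -0.32 in worms, and *eef-1G* had -0.53 and -0.63 and passed in neither. Initiation factors (34 genes) had 3 lower in nuclei and 2 in worms with medians near 0, and *eif-3.J* was the 1 called difference. Among 64 genes of the mitochondrial ribosome 1 fell in nuclei and 1 in worms, and among 31 aminoacyl-tRNA synthetases 0 and 1.

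Ribosome biogenesis genes, whose products build ribosomes in the nucleolus, had medians of opposite sign in the 2 sample types. Of 34, 12 fell and 0 rose in worms, where 8.97% of all genes fell, while 3 rose and 0 fell in nuclei, where 6.25% of all genes rose. The medians were 0.41 in nuclei and -0.52 in worms, and 29 of 34 differences were above 0 (median 0.82, against 0.09 over all genes), but none was called. In the fits without 1 library 0 to 5 differences were called, the 5 without wild-type worms replicate 2, and the number that rose in nuclei was 0 to 4. *nol-14*, needed for small subunit assembly, had 156, 116 and 111 CPM against 143, 145 and 96.6 CPM in nuclei and fell from 88.1, 47.2 and 54.4 CPM to 20.5, 31.5 and 31.1 CPM in worms. *wdr-12*, of large subunit assembly, rose from 111, 96.9 and 94.2 CPM to 238, 181 and 158 CPM in nuclei and had 55.7, 60.1 and 41.5 against 64.6, 46.7 and 44.9 CPM in worms. *nol-58* and *rbd-1*, the members of highest level, had 0.58 each in nuclei and -0.96 and -0.75 in worms. The list median kept its sign in both sample types under each scaling, at 0.24 to 0.41 in nuclei and -0.53 to -0.44 in worms. The number that fell in worms was 0 without wild-type worms replicate 1, 4 without replicate 3, and 7, 2 and 5 without *daf-2* worms replicates 1, 2 and 3, with medians of -0.62 to -0.36 over all 12 such fits.

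**Figure D4:**
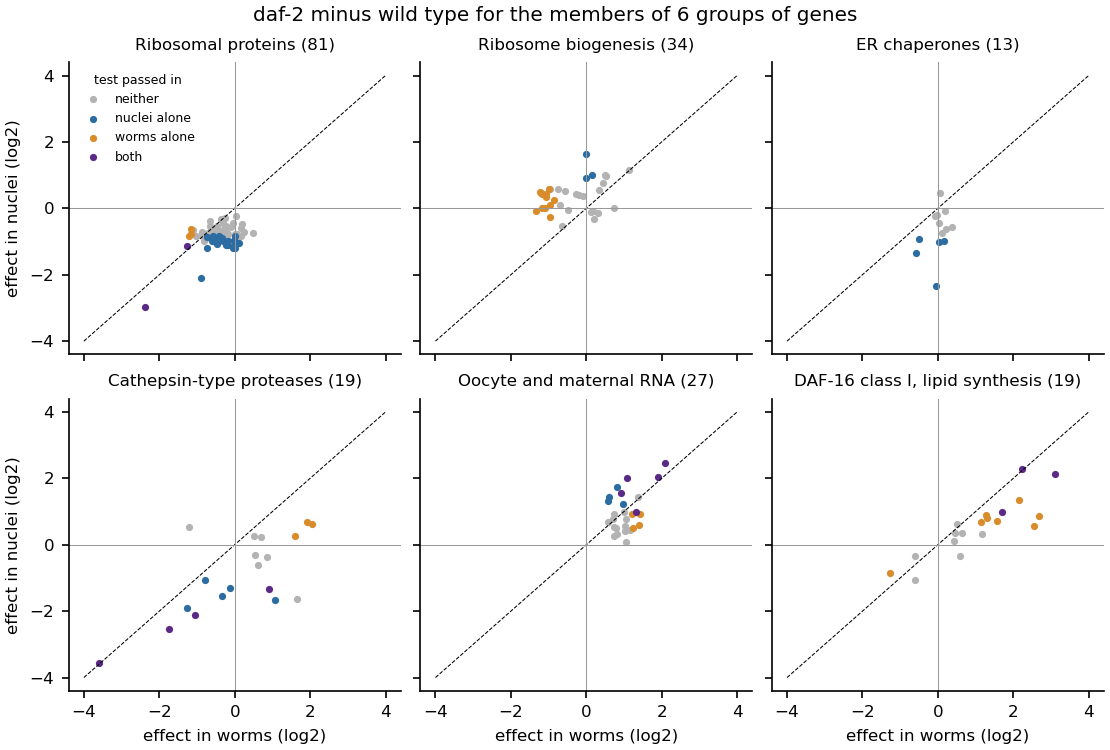
Effect in worms (horizontal, log2) against effect in nuclei (vertical, log2) for the members of 6 groups of genes, colored by the sample types in which the test was passed. The dashed line marks equal effects. Ribosomal proteins lie below 0 in nuclei, ribosome biogenesis genes spread to the left of 0 in worms, and oocyte genes lie above 0 in both.

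Folding and degradation genes showed few calls. *hsp-90*, the cytosolic HSP90, had 77.0, 119.5 and 65.2 CPM against 47.3, 42.6 and 38.9 CPM in nuclei and 283, 624 and 389.9 CPM against 365, 829 and 750.1 CPM in worms. The nuclei groups stood apart and the worm groups overlapped, with effects of -0.98 ± 0.34 (limma adjusted p = 0.0557) and 0.57 ± 0.34, and a difference of -1.55 ± 0.48 that did not pass (adjusted p = 0.134). Over 12 alternatives its adjusted p was 0.0198 to 0.191 and 3 passed, and of 12 fits without 1 library 1 passed (adjusted p = 0.0324 without wild-type worms replicate 2). *hsp-1*, the constitutive HSP70, fell in nuclei from 350.1, 258 and 248 CPM to 188, 174 and 147 CPM (-0.74 ± 0.25, adjusted p = 0.0491) and had -0.30 in worms. It was the single one of 14 cytosolic HSP70 and HSP90 genes that passed, and the list had medians of -0.23 in nuclei and 0.47 in worms. Of 13 chaperones of the endoplasmic reticulum, 5 fell in nuclei, where 8.18% of all genes fell, and 0 in worms, where 8.97% fell. Their medians were -0.61 and 0.03, and the median difference was -0.78. In the fits without 1 library the nuclei median was -0.81 to -0.55, and the count was 2 to 3 without any one of the 6 nuclei libraries and 3 without *daf-2* worms replicate 2. Among them *pdi-2*, a protein disulfide isomerase that also serves collagen hydroxylation, had 27.4, 32.3 and 30.0 CPM against 7.17, 8.68 and 3.36 CPM in nuclei and 49.8, 58.1 and 118.8 CPM against 54.3, 71.6 and 78.0 CPM in worms. Its difference of -2.27 ± 0.52 did not pass (adjusted p = 0.0598). *crt-1*, calreticulin, fell in nuclei by 1.01 and had 0.03 in worms, and *pdi-3* fell in nuclei by 1.35 and had -0.57 in worms. None of the 33 proteasome genes passed in nuclei, worms or the difference, at a median of -0.15, 0.13 and -0.27.

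Small heat shock proteins could be tested for 3 of 10 genes. *sip-1*, of the embryo and germline, had 150.5, 145 and 90.5 CPM against 766, 601 and 482 CPM in nuclei and 84.8, 143 and 112 CPM against 377, 594 and 648 CPM in worms. It rose by 2.27 ± 0.30 in nuclei and 2.24 ± 0.30 in worms, with a difference of 0.02 (95% interval -0.86 to 0.91).

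Class I genes, which DAF-16 raises, had more calls in worms than in nuclei, a difference that was not tested for the list. The list has 16 genes, and those lacking reads in a nuclei library of either genotype were left out. This bears on the contrast, since genes that rose from no reads in wild-type nuclei are not counted. Of 10 tested, 5 rose in worms (median 1.66) and 2 in nuclei (median 0.46), and all 10 had the same sign in both. *lea-1*, a late embryogenesis abundant protein of dehydration tolerance, had 14.2, 22.5 and 15.8 CPM against 99.6, 68.9 and 60.6 CPM in nuclei and 23.4, 45.3 and 39.8 CPM against 204, 356 and 379 CPM in worms, so that it rose by 2.12 and 3.12. *fat-5*, a fatty acid desaturase, rose in worms from 3.51, 2.51 and 3.58 CPM to 20.0, 21.8 and 18.7 CPM and had 0.87 in nuclei (difference -1.81 ± 0.67, limma adjusted p = 0.223). No difference in the list was called. Of 10 desaturases and elongases of fatty acids, 6 rose and 1 fell in worms and 1 rose in nuclei (medians 1.21 and 0.70). The elongase gene *elo-6* rose in both, by 0.99 and 1.69, and *elo-5* in worms by 1.30. Of 6 Class II genes, *vit-5* rose in both, *dod-19* fell in nuclei (-1.27, and -0.99 in worms) and *dod-22* fell in worms.

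The most used marker of DAF-16 was outside the 9271 genes, because it had no reads in wild-type nuclei. *sod-3*, a mitochondrial superoxide dismutase, was at 0 reads in all 3 wild-type nuclei libraries and had 5.22, 9.75 and 10.4 CPM in *daf-2* nuclei, at least 20.1-fold higher against a floor of 3 reads per library. In worms it had 0.773, 0.363 and 0.303 CPM against 33.6, 23.2 and 19.7 CPM. The ratio of the means was 61.7 after the 0.0672 CPM listed for a gene without reads was taken off both. *mtl-1*, a metallothionein, was at 0 reads in 2 of 3 wild-type nuclei libraries and had 6.06, 6.19 and 4.14 CPM in *daf-2* nuclei, and 0.0672, 0.304 and 0.879 CPM against 7.49, 6.16 and 6.95 CPM in worms. In both genes the *daf-2* libraries lay above all wild-type libraries in each sample type. *unc-119*, a gene for which the strains list different alleles, had no reads in 5 of 6 nuclei libraries and 0.39, 1.01 and 0.513 CPM against 2.67, 2.78 and 2.3 CPM in worms.

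Among 17 genes of the insulin pathway, 4 rose and 1 fell in nuclei, and 1 rose and 1 fell in worms. The shares over all genes were 6.25% and 8.18% in nuclei and 2.24% and 8.97% in worms. *pdk-1*, a kinase upstream of AKT, rose in nuclei from 6.75, 9.41 and 6.28 CPM to 36.2, 44.3 and 38.3 CPM (2.42 ± 0.41) and had 0.88 in worms. *sgk-1* rose in nuclei by 1.94 on 19.8 reads over the wild-type libraries and had 0.35 in worms. *ftt-2*, a 14-3-3 protein that holds DAF-16 in the cytoplasm, fell in nuclei (-1.42, limma adjusted p = 0.0446) and had 1.01 in worms (difference -2.43 ± 0.65, adjusted p = 0.0925). *pqm-1*, a transcription factor of Class II genes, fell in worms by 1.55 and had -0.29 in nuclei. *daf-2* itself had 6.75, 18.3 and 2.55 CPM against 10.5, 11.8 and 7.91 CPM in nuclei and 5.54, 13.0 and 14.0 CPM against 10.3, 30.1 and 36.2 CPM in worms, where e1370 is a point mutation that the level does not check. *daf-16* had 23.0, 29.6 and 30.3 CPM against 34.1, 57.6 and 35.7 CPM in nuclei and 25.5, 39.1 and 53.5 CPM against 29.4, 53.1 and 61.1 CPM in worms. Groups of both genes overlap in worms, and neither passed. *hsf-1* had 1.15 ± 0.40 in nuclei (adjusted p = 0.059) and 0.50 in worms, and *pept-1*, the intestinal peptide transporter, had -0.25 in nuclei and 0.95 in worms (adjusted p = 0.749 and adjusted p = 0.186).

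Oocyte transcripts had effects above 0 in both sample types, and part of them rose. Of 27 genes of oocytes and maternal RNA regulation, 9 rose in nuclei and 9 in worms, 5 of them as shared calls, none fell, and all 27 were above 0 in both (medians 0.93 and 1.03). For comparison, 6.25% of all genes rose in nuclei and 2.24% in worms. *cpg-3*, a chondroitin proteoglycan of the eggshell, had 32.4, 41.9 and 19.0 CPM against 225, 179 and 108 CPM in nuclei and 21.9, 40.0 and 19.0 CPM against 137, 107 and 89.7 CPM in worms. *chs-1*, chitin synthase, had 329, 337 and 273 CPM against 1486, 696 and 732 CPM in nuclei and 79.9, 107 and 76.4 CPM against 139, 187 and 167 CPM in worms. Both rose in both, *cpg-3* by 2.47 and 2.10 and *chs-1* by 1.55 and 0.91. The number that rose in worms was 1 and 3 without wild-type worms replicates 1 and 3, and 19, 2 and 2 without *daf-2* worms replicates 1, 2 and 3, while medians stayed at 0.81 to 1.31. In nuclei 14 rose without *daf-2* nuclei replicate 3. Summed over 29 genes, the level was 808 to 1124 CPM in wild-type and 1989 to 3306 CPM in *daf-2* nuclei, and 1084 to 1843 against 1907 to 3466 CPM in worms. *cyb-3*, a B-type cyclin, rose in nuclei from 51.9, 76.1 and 33.7 CPM to 234.9, 221 and 160.3 CPM and had 0.93 in worms.

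Several other germline lists had medians above 0 in both, while 16 histone genes had 0.11 in nuclei and -0.35 in worms. The shares of all genes that rose were 6.25% in nuclei and 2.24% in worms. Of 27 genes of germ cells and P granules 5 rose in nuclei and 0 in worms (0.39 and 0.56), and in the fits without 1 library 1 to 6 and 0 to 8, with 1 in nuclei without wild-type replicate 3 or *daf-2* replicate 1, 2 without *daf-2* replicate 2, and 8 in worms without *daf-2* worms replicate 1. Of 32 stem cell and GLD regulators 4 and 0 rose (0.56 and 0.54; 2 to 7 and 0 to 3 without 1 library), and of 31 DNA replication genes 7 and 2 (0.77 and 0.66). For 28 chromatin regulators 6 rose in nuclei and 1 fell in worms (0.67 and 0.45), but scaled to reads outside ribosomal RNA and the mitochondrial genome 0 rose and 1 fell in nuclei. The 6 became 0 without wild-type nuclei replicate 3, 1 or 2 without wild-type nuclei replicate 1 or *daf-2* nuclei replicates 1 or 2, and 3 without wild-type worms replicate 3 or *daf-2* worms replicates 2 or 3. The 7 DNA replication genes became 3 without wild-type nuclei replicate 3 and 4 without *daf-2* nuclei replicate 1 or 2. *ifet-1*, a translational repressor of P granules, had 528, 496 and 316 CPM against 1330.0, 1049 and 857 CPM in nuclei and 0.54 as its effect in worms. *rnr-2*, of ribonucleotide reductase, rose in both by 1.90 and 1.35. Sperm transcripts had medians below 0 in both. Of 45 spermatogenesis genes outside the major sperm proteins, 11 fell and 1 rose in nuclei and 9 fell in worms (medians -0.75 and -0.74), and of 37 major sperm proteins 6 and 2 fell (-0.57 and -0.55), where 8.18% and 8.97% of all genes fell. Without 1 library 2 to 7 major sperm proteins fell in nuclei and 0 to 3 in worms. *spe-11*, which sperm bring to the embryo, had 394, 335 and 314 CPM against 177, 113 and 163 CPM in nuclei and 207, 101 and 92.1 CPM against 57.2, 37.0 and 54.7 CPM in worms, and *ssq-1* fell by 1.48 and by 0.95. In nuclei 5 and 6 spermatogenesis genes fell without wild-type replicate 1 and *daf-2* replicate 2, and in worms 2, 3 and 4 without wild-type replicate 1 and *daf-2* replicates 2 and 3. No difference was called in any of these lists.

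**Figure D5:**
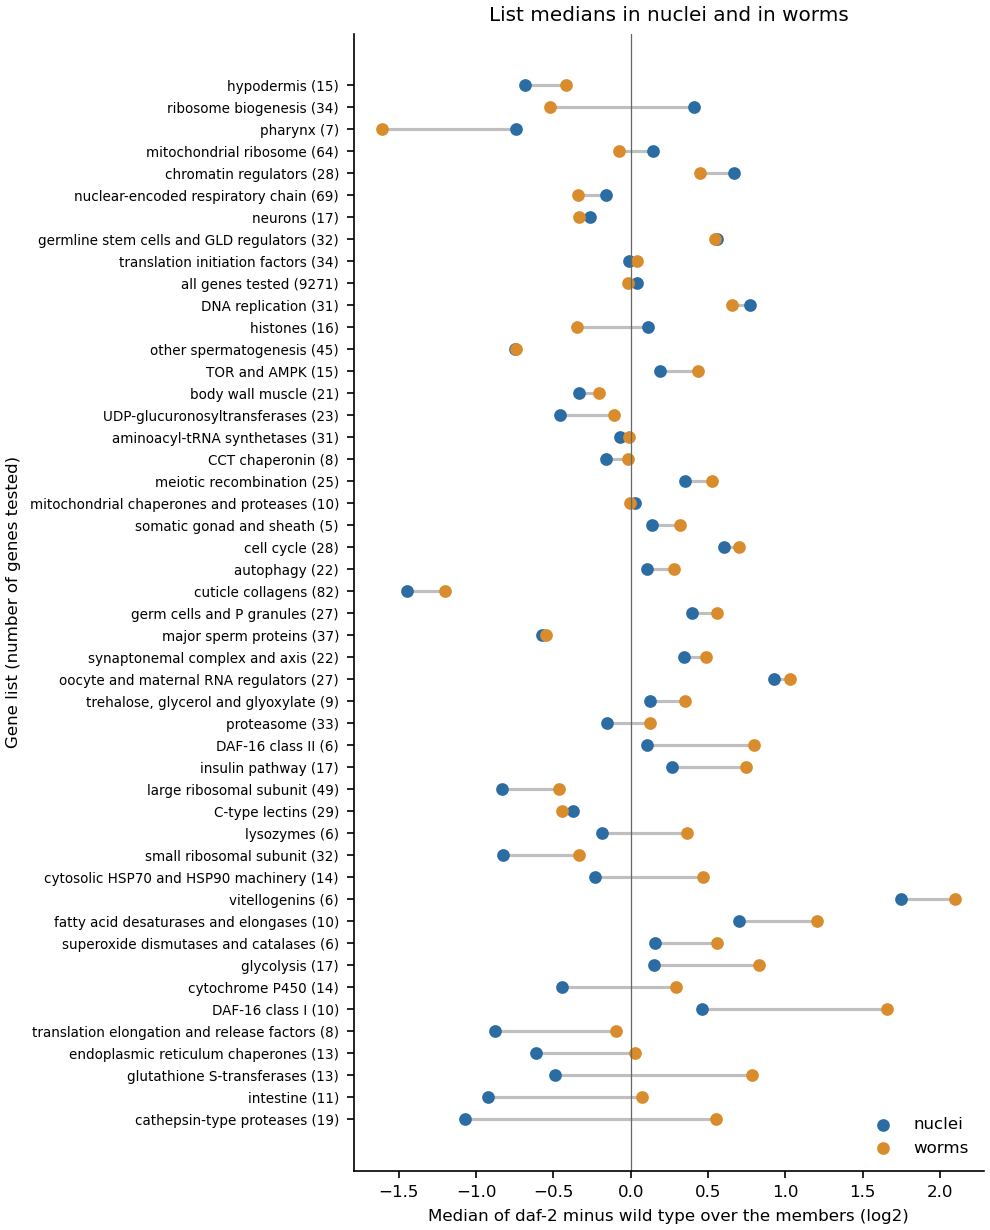
Median effect of *daf-2* (log2) over the members of each gene list with at least 5 genes tested, in nuclei (blue) and worms (orange), ordered by the median difference with the highest at the top. Ribosome biogenesis has medians of 0.41 and -0.52, and cathepsin-type proteases of -1.07 and 0.55, at opposite ends of the order.

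Muscle, energy and chromosome groups were described in the same way. Of 21 body wall muscle genes, 2 fell in nuclei and 3 in worms, with medians of -0.34 and -0.21. For comparison, 8.18% of all genes fell in nuclei and 8.97% in worms. The giant muscle protein gene *ttn-1* had 3211, 4919 and 4168 CPM against 4208, 3265 and 3956 CPM in nuclei and fell from 1372, 394 and 1219.5 CPM to 206, 140.2 and 152 CPM in worms, with wild-type worms replicate 2 again the lowest of its group. Its difference of 2.32 ± 0.56 did not pass (limma adjusted p = 0.0755), and *tni-1*, a troponin I, fell in both by 0.91 and by 1.06. Of 69 nuclear genes of the respiratory chain, 9 fell in worms, with 1 higher and 1 lower in nuclei (medians -0.16 in nuclei and -0.34 in worms), but 1 fell without wild-type worms replicate 1, replicate 3 or *daf-2* worms replicate 2, 2 without *daf-2* worms replicate 3 and 5 without wild-type nuclei replicate 2. All 15 genes of the mitochondrial genome were below 0 in worms (median -0.92, 4 called) and 10 were above 0 in nuclei (median 0.14), and all 15 differences were above 0 (median 1.07) without a call, but 5 were called without wild-type worms replicate 2. Their nuclei median turned to -0.08 without wild-type nuclei replicate 3, to -0.14 after quantile scaling and to -0.03 when scaled to the other reads. By chromosome, the median difference ranged from 0.06 on II to 0.13 on X, where 5 of 877 genes had a positive and 1 a negative called difference.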

How the data were processed

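The authors deposited log2 CPM made with edgeR from featureCounts counts of STAR alignments to WBcel235 (ce11), with reads of several genes counted as fractions (per the labels and methods). The strand setting is not given in the sources used here. The 12 columns of nuclei and worms were used as deposited. The authors' tables of fold changes and p-values, and the table of HSF-1 depletion, were not used. A lowest value of -3.89 marks 0 reads, and the steps above it gave the worth of 1 read in each library. For 9271 genes above it in all 6 nuclei libraries, 1 mean per group was fitted with limma 3.58.1 (eBayes with trend, R 4.3.3), in place of the count test of the study, which log2 values do not allow. Errors of effects are SE of this fit with 3 libraries per group. They rest on 1 spread per gene over all 4 groups, so both effects of a gene have the same SE. All p-values are two-sided and adjusted by Benjamini-Hochberg over all genes tested. Intervals of ratios cover counting error only.

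Gene lists (52, of which 49 had tested members) and genes were chosen with earlier results of these data known. Lists are described by counts and medians, without a test. Names were found for 13644 genes and positions for 14186. Named genes are the 10 highest and 10 lowest called differences, the 10 shared genes per direction with the largest smaller effect, opposite calls (all with at least 5 CPM in the highest group), up to 3 called differences or else the 2 highest levels per list, and 9 genes of the study's question. The genes *asp-4*, *asp-6*, *cpr-5*, *pdi-2*, *ftt-2*, *pdk-1*, *sgk-1*, *fat-5*, *rpl-42*, *rpl-11.2*, *rpl-4*, *F59E12.9*, *F53B2.8*, *nol-14*, *wdr-12*, *ttn-1*, *tni-1*, *cpg-3*, *pqm-1*, *dod-19*, *vit-5*, *mtl-1*, *rnr-2*, *spe-11* and WBGene00010958 were chosen after their values were seen. One gene of the insulin pathway list is counted but not reported by name. Alternatives were other filters, scalings, pseudocounts, library weights, 6 libraries per fit, replicate blocks and leaving out each library. Scaling without ribosomal and mitochondrial reads, leaving out both second nuclei libraries and a minimum of 10 reads in each of the 12 libraries were chosen after seeing the data. Scripts ran in Python 3.11.15 with pandas 2.3.3, numpy 2.4.6 and matplotlib 3.10.9.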

Additional observations from a re-analysis of the deposited data

Results flagged for a closer look

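The following results are listed because the effect of *daf-2* differed between nuclei and worms by the test of the difference itself (limma, adjusted over 9271 genes). Such a difference was called for 37 genes. The values below are differences of the log2 effects, nuclei minus worms.

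Among the positive values, *dod-22* had 5.16, *chtb-2* 4.32, *C02F4.11* 4.16, *pqn-67* 3.95 and *C18B12.10* 3.76. *K09F6.9* had 3.71, *C42D4.18* 3.42, *C06B3.7* 3.19, *sdc-2* 2.94 and *C35E7.5* 2.87. Genes that rose in nuclei and fell in worms were *Y46H3C.5* with 2.86, *H37A05.4* with 2.66, WBGene00014904 with 2.47, *F13C5.2* with 2.43, *Y46H3C.7* with 2.33 and WBGene00014492 with 1.98. Members of the gene lists were *eif-3.J* with 2.58, *ist-1* with 2.37 and *tnt-3* with 2.24. *F59E12.9* had 2.56 and *F53B2.8* 1.99.

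Among the negative values, *C18D11.1* had -4.84, *F45D11.14* -4.68, and the *F45D11.16* entries WBGene00018460 and WBGene00018461 -4.30 and -3.68. *msra-1* had -3.62, *alh-12* -2.39 and *cpr-6* -2.24.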

How the results depend on the processing

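Of 1820 values of named genes recomputed under the alternatives, 1455 kept their direction and their side of the threshold, 358 were no longer past it, 5 came to pass it, and 2 turned sign. Without 1 library, the difference was called for 0 to 299 genes, nuclei calls were 669 to 1494, worm calls 392 to 1339, shared calls 207 to 469 and opposite calls 0 to 21. The uncalled differences of *daf-2* and *daf-16* ranged from -1.32 to 0.10 (turned without wild-type nuclei replicate 2) and from -0.0098 (without *daf-2* worms replicate 1) to 0.59. Against the 37 differences, there were 14 with the authors' filter (3 positive), 17 without a filter (4 positive), 12 after quantile scaling (11 positive), 320 with library weights (234 positive), 24 without the second nuclei libraries (10 positive) and 69 with at least 10 reads in all libraries (60 positive). Of the 37, 5 were still called with the authors' filter, 5 without a filter and 8 after quantile scaling. All 37 were called with library weights, 14 without the second nuclei libraries and 28 with at least 10 reads. The 37 kept their sign wherever they were tested, of which 27 were tested with at least 1 CPM and 28 with at least 10 reads in all libraries. The 7 opposite calls became 4 with the authors' filter, 4 without a filter, 1 after quantile scaling, 4 with a pseudocount of 2, 15 with library weights and 4 without the second nuclei libraries. Shared calls were 207 after quantile scaling and 192 without the second nuclei libraries. Nuclei calls were 1102 with 6 libraries in each fit, 707 with library weights and 655 without the second nuclei libraries. Worm calls were 1821 with 6 libraries in each fit and 3993 with library weights. Of the nuclei calls, 391 were higher and 993 lower when scaled to reads outside ribosomal RNA and the mitochondrial genome, against 579 and 758. The cause of these changes was not tested. The depth of the nuclei limits genes near 1 read, such as those at 0 in *daf-2* nuclei.

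Nuclei and worms of a genotype share replicate numbers. The deviations of same-numbered libraries correlated by 0.136, 0.103 and 0.177 in the wild type and by 0.0909, 0.144 and 0.143 in *daf-2*, and each library correlated best with its own number within its genotype. Nuclei and lysate came from the same preparations per the methods, but no source says that the numbers mark them. With the replicate block 284 differences and 33 opposite calls were called, and with the preparation as replicate block 230 differences, each including all 37. The difference of *hsp-90* passed under both blocks.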

Other observations

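No difference between nuclei and worms was called in the lists of C-type lectins, lysozymes, UDP-glucuronosyltransferases, glutathione S-transferases and cytochrome P450 genes. Of 29 C-type lectin genes, whose products bind sugars and respond to microbes, 3 rose and 9 fell in nuclei and 2 rose and 5 fell in worms, with medians of -0.37 and -0.44. Over all genes, 6.25% rose and 8.18% fell in nuclei, and 2.24% rose and 8.97% fell in worms. *lys-7*, a lysozyme of the intestine, had 51.4, 34.7 and 45.8 CPM in wild-type nuclei and 181, 211 and 191 CPM in *daf-2* nuclei, and 50.9, 21.6 and 29.6 against 184, 142 and 126 CPM in worms. It rose by 2.16 ± 0.30 and 2.22 ± 0.30 (limma adjusted p = 0.000217 and adjusted p = 7.98e-05), with no overlap of groups. Of 23 UDP-glucuronosyltransferases, 3 rose and 3 fell in nuclei and 2 rose and 6 fell in worms. The 13 glutathione S-transferases had medians of -0.49 in nuclei and 0.78 in worms, with 1 lower in nuclei and 1 higher and 1 lower in worms. The 14 cytochrome P450 genes had medians of -0.45 and 0.29.

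Glycolysis genes had a median of 0.15 in nuclei and 0.83 in worms over 17 genes, with 1 higher in each. *enol-1*, enolase, had -0.11 in nuclei and 0.83 in worms and passed in neither (limma adjusted p = 0.863 and adjusted p = 0.121).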
